A study of Homo sapiens with 7 samples.

Results

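Definitive endoderm is the germ layer that forms the gut tube and its organs, liver and pancreas among them. In the embryo it arises from the primitive streak under high NODAL signaling, and cultured human embryonic stem cells (hESCs) are driven towards it with activin A. A small set of regulators marks the step: the pioneer factors FOXA1 and FOXA2, which open compacted chromatin, the zinc finger factors GATA4 and GATA6, the HMG box factor SOX17, the homeobox factor HHEX of the anterior endoderm, the nuclear receptor HNF4A of the later hepatic program, the repressor PRDM1 (also called BLIMP1), and the chemokine receptor CXCR4, a surface marker used to sort endoderm cells. The genes of many such regulators carry H3K27me3 in pluripotent cells, the mark that the demethylase JMJD3 (KDM6B) removes.

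These 9 genes were taken by name from a list of 20404 gene names, and each had 1 entry in the files, so no choice between entries was needed. The RNA-seq series holds 7 libraries of SEES-3 cells, an hESC line, 1 for each condition, from feeder-free cultures in a maintenance medium. All of the cells constitutively express a reverse Tet transactivator and hold a piggyBac insertion with a Tet-responsive promoter, selected with puromycin as stable clones. In the JMJD3c-hESCs the insert encodes JMJD3c, the tagged catalytic part of JMJD3, and cultures were taken without doxycycline (Dox; Day 0) and after 1, 2, 3 and 4 days of Dox at 1 µg/ml. In the JMJD3c mut-hESCs it encodes the same part with a point mutation that removes the catalytic activity, and cultures were taken untreated and after 4 days of Dox. The lines were selected separately, so line and insert cannot be told apart when they are compared.

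Values are FPKM, read fragments scaled to the length of the transcript and to the reads mapped in the library, which allows levels of different genes to be compared. The steps of whole reads among low FPKM put the depth at about 1800000 reads at Day 0, the shallowest library, and at about 2400000 to 3600000 in the other 6. Bounds in parentheses are the 95% intervals of Cufflinks, which give the precision of the estimate within a library. Each condition is a single library, so the spread between cultures is unknown and differences are given without p-values. A gene was called higher when its FPKM was above 4 in the higher library and more than 2 times that of the other, the cutoffs of the study. KDM6B, whose FPKM can include the inducible sequence, was at 3.45 FPKM before Dox and between 158 and 282 during it, and in the mutant line at 2.40 and 454 FPKM. The cells carried the hESC markers throughout: POU5F1 was listed between 619 and 841 FPKM, SOX2 between 65.9 and 135.6 and NANOG between 84.3 and 109 in the 7 libraries. In bulk RNA, fewer cells that express a gene cannot be told apart from less RNA in each cell.

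CpG-dense promoters are those on which Polycomb and H3K27me3 are typically found, so the sequence just before the start of transcription is shown for 3 of the regulators that behaved differently below. RefSeq (GRCh38.p14) gave promoter windows of 300 bases for 6 of the 9 genes. SOX17, FOXA2 and GATA4 had no window. Each window was found once, letter for letter, in the hg19 genome used for the files, and the 250 bases before the RefSeq start farthest upstream are printed 5′ to 3′ with every CpG in capitals. CXCR4 (chr2:136875720-136875969, minus strand) was listed at 0 FPKM in both untreated libraries and was called higher at Day 4. HHEX (chr10:94449462-94449711, plus strand), whose window lies inside the span annotated for the gene, was not called. HNF4A (chr20:42984089-42984338, plus strand) was the last to appear.
CXCR4: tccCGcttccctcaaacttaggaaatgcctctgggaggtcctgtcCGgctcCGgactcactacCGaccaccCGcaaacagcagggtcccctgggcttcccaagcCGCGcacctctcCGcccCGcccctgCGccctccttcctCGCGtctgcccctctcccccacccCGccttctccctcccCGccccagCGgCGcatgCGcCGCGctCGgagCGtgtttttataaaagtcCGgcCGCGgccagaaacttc
HHEX: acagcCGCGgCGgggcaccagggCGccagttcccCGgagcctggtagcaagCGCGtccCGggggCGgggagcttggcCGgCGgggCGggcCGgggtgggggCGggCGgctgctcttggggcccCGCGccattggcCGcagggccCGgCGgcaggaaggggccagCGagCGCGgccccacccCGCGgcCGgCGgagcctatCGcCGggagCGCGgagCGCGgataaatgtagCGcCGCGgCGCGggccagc
HNF4A: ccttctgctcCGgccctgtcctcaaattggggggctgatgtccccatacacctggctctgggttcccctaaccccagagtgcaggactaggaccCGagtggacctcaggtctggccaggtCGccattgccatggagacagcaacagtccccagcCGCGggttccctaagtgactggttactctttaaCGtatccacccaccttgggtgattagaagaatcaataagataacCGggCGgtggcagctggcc

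The whole HHEX window held 44 CpGs, more than or as many as 96.5% of 35116 windows of all genes, whose median was 14. FOXA1 had 34, CXCR4 27, GATA6 25, PRDM1 14 and HNF4A 11. HHEX and FOXA1, with the most CpGs, and HNF4A, with the fewest, did not pass the cutoffs at Day 4, and CXCR4, GATA6 and PRDM1, in between, did. SOX17, FOXA2 and GATA4, which also passed, had no window and are missing from this order. CXCR4 had 3 windows and HNF4A and PRDM1 had 2 each, of which only the one farthest upstream was counted. A link between CpG count and the calls was not tested. Both strands were searched for the letters TGTTTAC of forkhead factors, AGATAA of GATA factors, ACAATGG of SOX factors, AGGTGTGA of T-box factors and CAGACA of SMAD proteins. The search found the GATA letters in HNF4A and the SMAD letters in PRDM1, and none of the others in any of the 6 windows. Among all windows 10.3% hold the GATA letters and 16.9% the SMAD letters, 3.42% the forkhead, 3.16% the SOX and 0.98% the T-box letters.

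At Day 4 of Dox, FOXA2, SOX17, GATA6, CXCR4, GATA4 and PRDM1 were called higher than at Day 0. That is 6 of the 9 regulators, against 5.87% of the 10238 gene names above 4 FPKM in either library. With the intervals also apart, PRDM1 dropped out, and the background was 2.51%. Values listed at 0 have bounds of 0 to 0, as SOX17, GATA4, GATA6 and CXCR4 had at Day 0. For these, any lower bound above 0 at Day 4 counted as apart, whereas PRDM1, at about 2 reads at Day 0, had an upper bound of 3.82 FPKM. The Day 4 lower bounds of these 4, at 6.69 FPKM or more, also lay above the FPKM of 3 reads at Day 0. No member was above 1 FPKM at Day 0, so one above 4 FPKM at Day 4 had to pass, and none could be called lower (7.54% of all names were). HNF4A, HHEX and FOXA1 were also listed higher than at Day 0 but stayed under 4 FPKM. The sum over the 9 genes was 1.34 FPKM before Dox and 9.84, 27.8, 54.0 and 98.0 FPKM on Days 1, 2, 3 and 4. Without active JMJD3c, in the mutant line, it was 5.67 FPKM without Dox and 4.53 with Dox, and none of the 9 was above 4 FPKM. Over the 9 genes the median difference in log2(FPKM + 1) between Day 4 and Day 0 was 3.58, beside 0.00 over all gene names. With values listed at 0 set to the FPKM of 3 reads, it was 2.99.

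**Figure D1:**
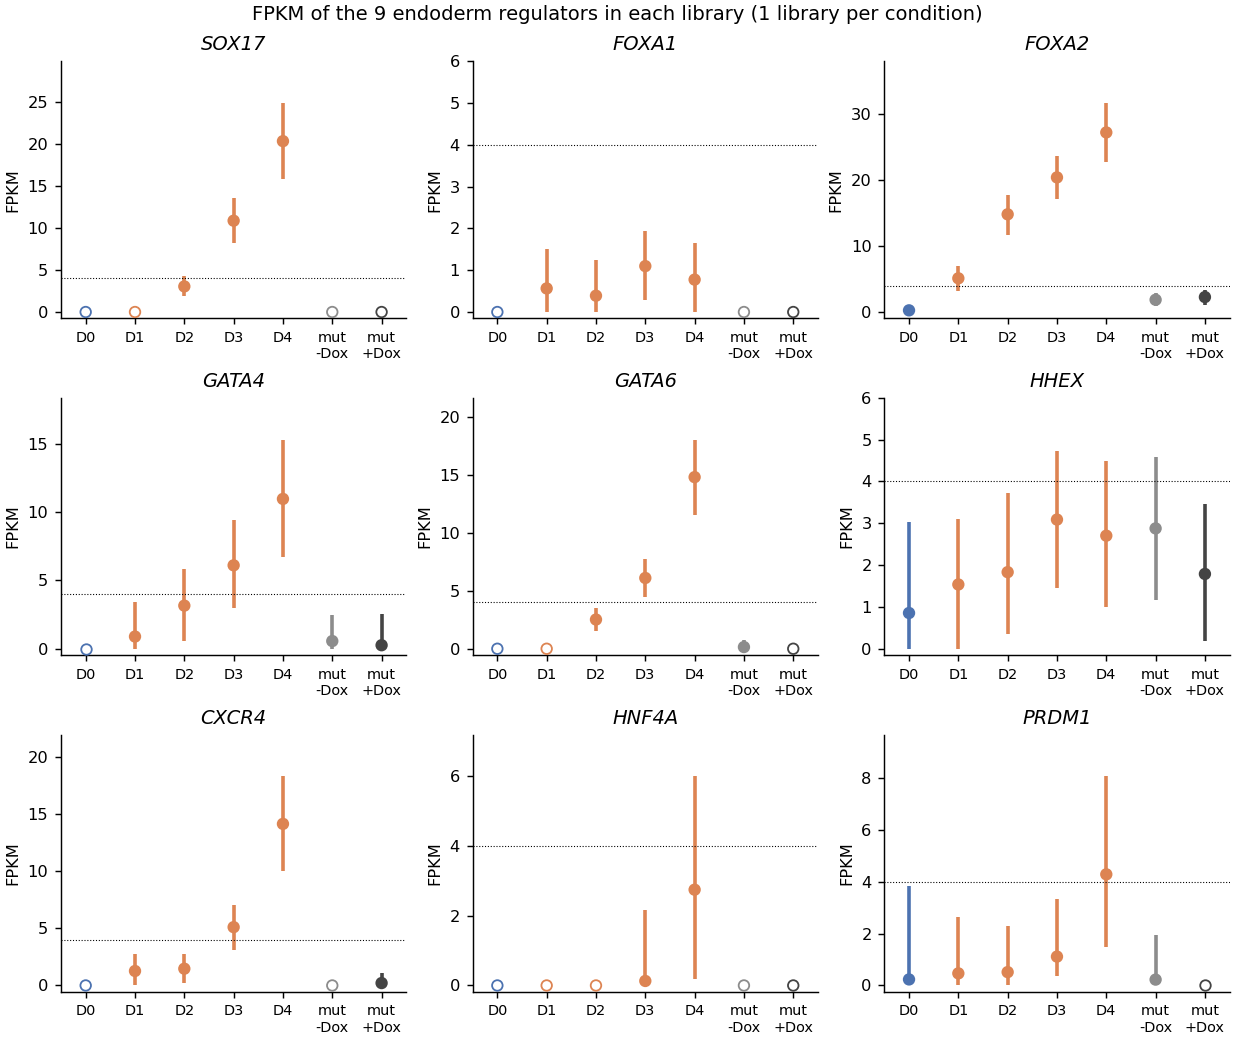
FPKM of each regulator (y axis, own scale per gene) in the 7 libraries (x axis): JMJD3c-hESCs at Days 0 to 4 (D0 to D4) and the mutant line without and with Dox. Points are the deposited values, bars the Cufflinks 95% interval, open points values listed at 0, and the dotted line the cutoff of 4 FPKM; at Day 4, 6 genes lie above that line, and in the mutant line none does.

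Of the forkhead factors, FOXA2 was the first of the 9 to be called at the cutoff of 4 FPKM. It was also the most abundant of the 9 on each of the 4 Dox days of the JMJD3c line. With a cutoff of 1 FPKM, 2 members were called at Day 1. FOXA2 (ENSG00000125798, chromosome 20 of hg19, 22561643 to 22566093, minus strand) was at 0.255 FPKM before Dox and at 5.12, 14.8, 20.4 and 27.2 on Days 1, 2, 3 and 4. The mutant line had 1.86 FPKM of FOXA2 untreated and 2.27 with Dox. All 4 Dox days thus lay above both untreated libraries, and the interval of Day 1 (3.24 to 6.99) already cleared those of Day 0 (0 to 1.02) and of the untreated mutant line (0.868 to 2.85), but overlapped that of the mutant line with Dox (1.13 to 3.40). The ratio of Day 4 to Day 0 was 106.7, but the Day 0 value stands for about 1 read. Taken to the untreated mutant library instead, it was 14.6. The difference in log2(FPKM + 1) from Day 0, 4.49, was the 8th largest of all 20404 names, and FOXA2 was the only member called at Day 1 and at Day 2, where the backgrounds were 3.46% and 3.88%. It was also the only one called from Day 1 to Day 2 (background 2.06%).

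FOXA1, its close relative with an almost identical DNA-binding domain, stayed low. FOXA1 (ENSG00000129514, chromosome 14, 38059189 to 38069245, minus strand) was listed at 0 FPKM before Dox and in both mutant libraries, and at 0.564, 0.391, 1.10 and 0.775 on Days 1, 2, 3 and 4. Its Day 4 interval, 0 to 1.65, reached 0, and 3 reads at Day 0 would have given 0.504 FPKM, so these values rest on few reads. FOXA3, the third member of the family, was instead present before Dox, with 12.9 FPKM in the JMJD3c line and 5.95 in the mutant line, and had 8.27 FPKM on Day 4. At Day 0 FOXA3 was therefore the most abundant FOXA transcript, and at Day 4 FOXA2 was.

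GATA4 and GATA6 bind the same DNA motif and act together in endoderm and in heart. GATA6 (ENSG00000141448, chromosome 18, 19749404 to 19782491, plus strand) was listed at 0 FPKM before Dox and on Day 1, then at 2.52, 6.11 and 14.8 on Days 2, 3 and 4. The mutant line had 0.147 FPKM untreated and 0 with Dox. GATA4 (ENSG00000136574, chromosome 8, 11534468 to 11617511, plus strand) was listed at 0 FPKM before Dox and at 0.893, 3.16, 6.11 and 10.97 on Days 1, 2, 3 and 4, with 0.563 and 0.259 in the mutant line without and with Dox. Both genes were higher at each day from Day 2 on than in any library without active JMJD3c. At Day 3 they stood at the same level, with intervals of 4.44 to 7.79 for GATA6 and 2.99 to 9.39 for GATA4, and at Day 4 their intervals, 11.6 to 18.1 and 6.69 to 15.3, overlapped. The difference in log2(FPKM + 1) from Day 0 was 3.98 for GATA6 and 3.58 for GATA4. At Day 0, 3 reads would have given 0.487 FPKM for GATA6 and 0.504 for GATA4.

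No other GATA gene passed the cutoffs at Day 4. GATA3, a regulator of trophoblast and T cells, went from 0 to 2.68 FPKM. GATA5, known in endoderm and heart, went from 1.64 to 0.343 FPKM, GATA2 from 0.671 to 0.260 FPKM, and GATA1 was listed at 0 in all 7 libraries. The listed values of GATA4, GATA6 and GATA3 were thus higher at Day 4 and those of GATA2 and GATA5 lower, the last 3 at levels under 3 FPKM.

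SOX17 is required for endoderm formation and also marks human primordial germ cells and arterial endothelium. SOX17 (ENSG00000164736, chromosome 8, 55370495 to 55373448, plus strand) was listed at 0 FPKM before Dox, on Day 1 and in both mutant libraries, and at 3.05, 10.9 and 20.3 on Days 2, 3 and 4. It was thus detected only in the libraries from Day 2 on. The interval was 1.86 to 4.24 at Day 2, 8.19 to 13.5 at Day 3 and 15.8 to 24.9 at Day 4, so each of these days was apart from the one before. For SOX17, 3 reads stand for 0.777 FPKM at Day 0, 0.538 at Day 1 and 0.388 and 0.437 in the mutant line without and with Dox, and lower expression could be missed there. The difference in log2(FPKM + 1) between Day 4 and Day 0, 4.41, was the 9th largest of all names. Its relatives in the SOXF group stayed low: SOX7 went from 0 FPKM before Dox to 0.817 on Day 4, and in all 7 libraries SOX18 lay below 2 FPKM.

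**Figure D2:**
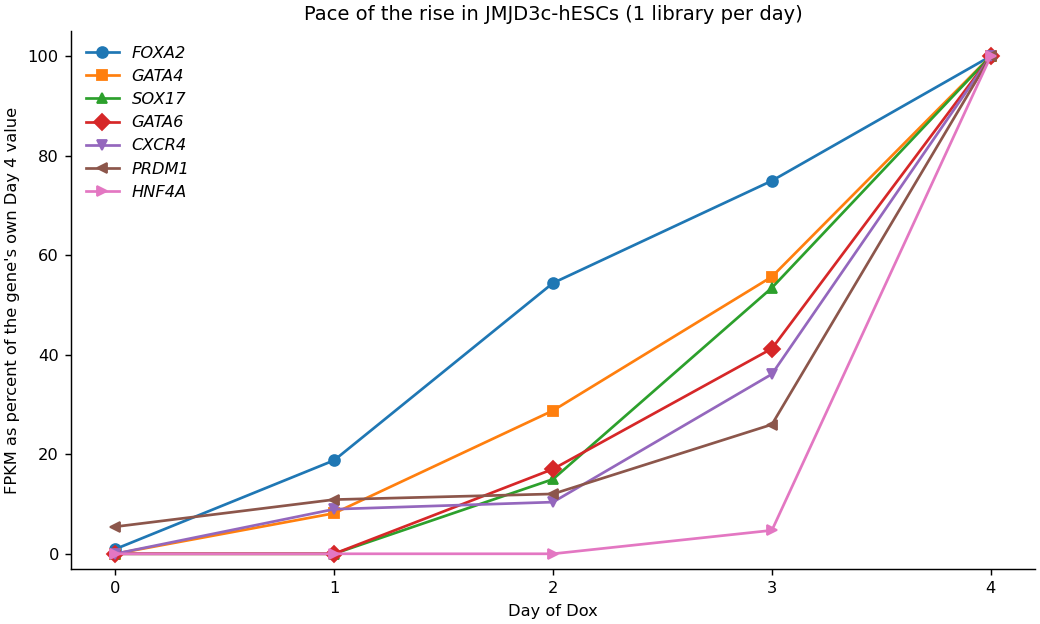
FPKM of 7 regulators as a percentage of their own Day 4 value (y axis) by day of Dox (x axis) in JMJD3c-hESCs, 1 library per day. At Day 2 FOXA2 stands at 54.4%, GATA4 at 28.8% and the others at or below 17.0%, and HNF4A is still at 4.71% at Day 3; FOXA1 and HHEX, whose highest value was at Day 3, are left out.

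CXCR4, the receptor of the chemokine CXCL12, stayed low until Day 2. CXCR4 (ENSG00000121966, chromosome 2, 136871919 to 136875735, minus strand) was listed at 0 FPKM before Dox and at 1.27, 1.47, 5.11 and 14.1 on Days 1, 2, 3 and 4. The mutant line had no CXCR4 listed untreated and 0.211 FPKM with Dox. Most of the rise thus fell between Day 2 and Day 4, where the intervals of 0.210 to 2.73, 3.12 to 7.07 and 9.98 to 18.3 were apart at each step. The difference in log2(FPKM + 1) from Day 0 was 3.92, and 3 reads at Day 0 would have given 0.846 FPKM. CXCL12 was expressed in every library and did not pass the cutoffs, with 33.9 FPKM at Day 0 and 28.3 at Day 4. ACKR3, the other receptor of CXCL12, was called higher at Day 4, at 4.81 FPKM against 0.281 at Day 0, with overlapping intervals.

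PRDM1, a zinc finger repressor active in foregut endoderm, germ cells and plasma cells, was the lowest of the called genes. PRDM1 (ENSG00000057657, chromosome 6, 106534195 to 106557814, plus strand) was at 0.233 FPKM before Dox and at 0.467, 0.515, 1.11 and 4.29 on Days 1, 2, 3 and 4, with 0.226 and 0 in the mutant line without and with Dox. The intervals of Days 1, 2 and 3 overlapped those of both untreated libraries, and the value of Day 4 stood above the other 6. Its interval, 1.49 to 8.06, overlapped that of Day 0, 0 to 3.82, and the value lies just above the cutoff of 4 FPKM. PRDM14, a pluripotency regulator of the same family, went the other way: it was called lower than at Day 0, at 15.1 FPKM at Day 4 against 32.5, but not lower than the untreated mutant line, at 27.5 FPKM.

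HNF4A, a nuclear receptor that drives hepatocyte genes, appeared last. HNF4A (ENSG00000101076, chromosome 20, 42984340 to 43061485, plus strand) was listed at 0 FPKM before Dox, on Days 1 and 2 and in both mutant libraries, and at 0.129 and 2.74 on Days 3 and 4. Of the 7 intervals only that of Day 4, 0.183 to 5.99, began above 0, and the value did not reach the cutoff. The difference in log2(FPKM + 1) from Day 0 was 1.90, and 3 reads at Day 0 would have given 0.367 FPKM. HNF4G, its paralog, was listed between 0.421 and 0.814 FPKM in the 7 libraries.

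HHEX, like FOXA2, GATA4 and GATA6, was listed higher in the untreated mutant line than at Day 0. HHEX (ENSG00000152804, chromosome 10, 94447945 to 94455403, plus strand) was at 0.855 FPKM before Dox and at 1.54, 1.83, 3.09 and 2.70 on Days 1, 2, 3 and 4. The mutant line had 2.88 FPKM of HHEX untreated and 1.79 with Dox. The untreated mutant value thus lay between those of Days 3 and 4, and all 7 intervals overlapped. The ratio of Day 4 was 3.16 to Day 0 and 0.940 to the untreated mutant line.

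In the JMJD3c line, the order of the levels at Day 4 was FOXA2, SOX17, GATA6, CXCR4, GATA4, PRDM1, HNF4A, HHEX and FOXA1. Every pair of neighbors in this order had overlapping intervals, which does not by itself show that neighbors were at the same level. Further apart, the interval of FOXA2 (22.8 to 31.7) cleared that of GATA6 (11.6 to 18.1), and those of SOX17, GATA6 and CXCR4 cleared that of PRDM1 (1.49 to 8.06).

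FOXA2, SOX17, GATA4, GATA6, CXCR4 and PRDM1 were each higher at every step from Day 1 to Day 4. Among 10864 gene names above 4 FPKM in any library, 8.51% had such a series. The 6 regulators passed that filter only through Dox-treated libraries of the JMJD3c line. A rise was thus partly built in, and the share is not a like background. FOXA1, HHEX and HNF4A, never above 4 FPKM, were not higher at every step. By Day 3, FOXA2, SOX17, GATA4, GATA6 and CXCR4 were called higher than at Day 0 (background 4.72%), and PRDM1 joined at Day 4. Between Days 2 and 3 the members called were SOX17, GATA6 and CXCR4 (background 1.96%). From Day 3 to Day 4, CXCR4, GATA6 and PRDM1 were called higher again (background 2.01%), with ratios of 2.77, 2.43 and 3.85. The same step was 1.87 for SOX17, 1.80 for GATA4 and 1.33 for FOXA2. At Day 3, FOXA2 had reached 75.0% of its Day 4 value, GATA4 55.7%, SOX17 53.4%, GATA6 41.2%, CXCR4 36.1%, PRDM1 26.0% and HNF4A 4.71%. These days are single libraries, and the comparisons with Day 0 share that library.

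Against the mutant line, the same 6 genes were called higher at Day 4. Apart from FOXA2, they were under 1 FPKM in both mutant libraries, so above 4 FPKM at Day 4 they had to pass. With the intervals also apart, PRDM1 dropped out against the untreated mutant library, and 5 remained. Against the Dox-treated one, where PRDM1 was listed at 0, all 6 remained. The background was 7.05% against the untreated and 6.57% against the Dox-treated mutant library, and both comparisons share the Day 4 library with the one above. Relative to the Dox-treated mutant line, which had more KDM6B transcript, the difference in log2(FPKM + 1) was 4.41 for SOX17, 3.98 for GATA6, 3.64 for CXCR4, 3.25 for GATA4, 3.11 for FOXA2 and 2.40 for PRDM1. It was 1.90 for HNF4A, 0.83 for FOXA1 and 0.41 for HHEX. Within the mutant line no member was above 4 FPKM in either library, so none could be called (1.22% of names were called higher and 1.52% lower). There FOXA2 and CXCR4 were listed higher with Dox, GATA4, GATA6, HHEX and PRDM1 lower, and SOX17, FOXA1 and HNF4A at 0 in both libraries. For none of the 9 were the intervals of the mutant libraries apart.

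**Figure D3:**
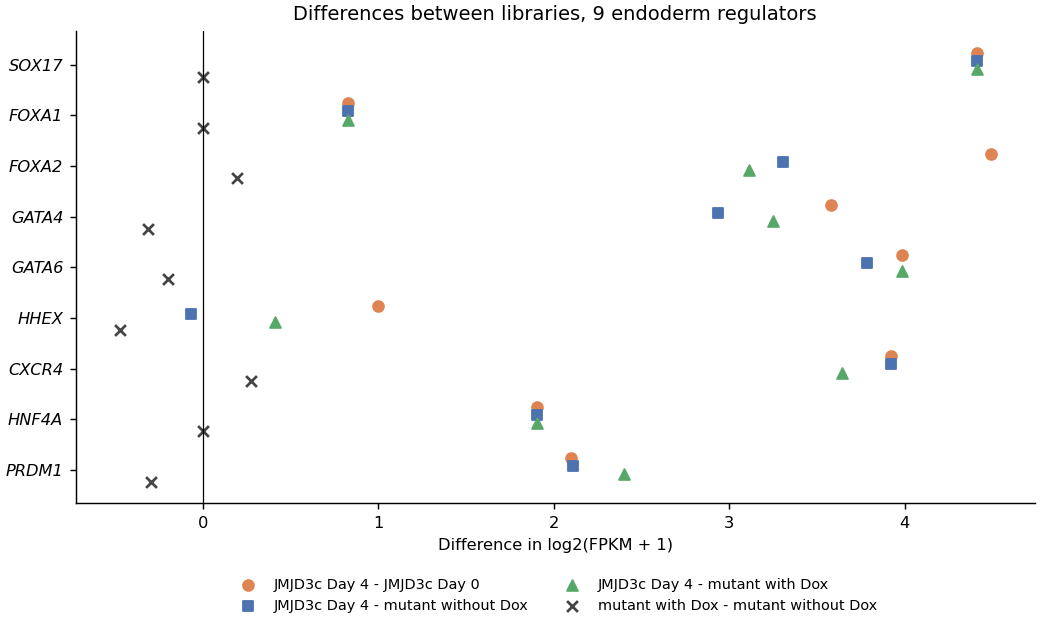
Difference in log2(FPKM + 1) between libraries (x axis) for the 9 regulators (y axis), 1 library on each side. In the 3 comparisons with JMJD3c Day 4, SOX17, FOXA2, GATA4, GATA6, CXCR4 and PRDM1 lie at 2.10 or more, while Dox in the mutant line (crosses) stays between -0.48 and 0.28.

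Relatives of these genes by family, and the lists below, were read in the same way. Among names above 4 FPKM in either library, 5.87% were called higher and 7.54% lower at Day 4 than at Day 0. Against the untreated mutant line 7.05% were called higher. With Dox in the mutant line 1.22% were called higher and 1.52% lower. Of 10 relatives, ACKR3 was called higher and PRDM14 lower at Day 4, and the median difference in log2(FPKM + 1) was 0.09 from Day 0 and -0.04 from the untreated mutant line, beside 0.00 over all names.

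**Figure D4:**
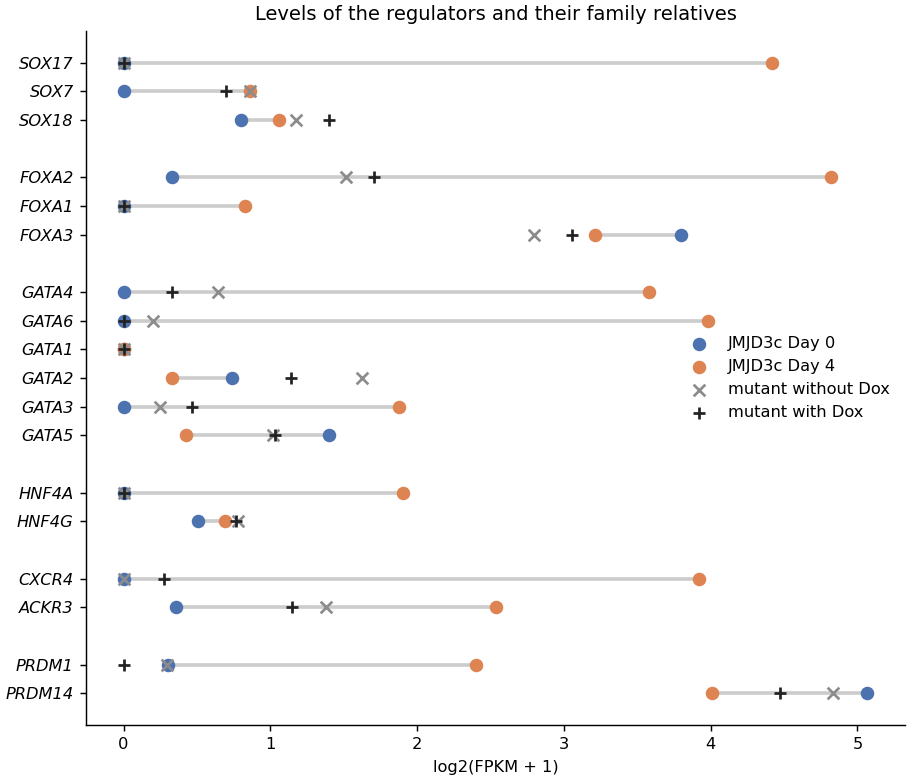
Levels as log2(FPKM + 1) (x axis) of 8 regulators (HHEX, with no relative in the list, is left out) and 10 relatives, grouped by family (y axis), in 4 libraries, with a gray bar from Day 0 to Day 4. FOXA2, SOX17, GATA4, GATA6 and CXCR4 end at 3.58 or higher from 0.33 or lower, while FOXA3 and PRDM14 start high and end lower.

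Other genes of definitive endoderm were called higher beside the regulators. In a list of 17, 8 were called higher at Day 4 than at Day 0 and 0 lower (backgrounds 5.87% and 7.54%). Of the 17, 12 were above 4 FPKM in either library, the set to which the backgrounds refer. Against the untreated mutant line, 9 were called higher (background 7.05%). The median difference in log2(FPKM + 1) was 1.72 from Day 0. From 0 FPKM before Dox, CER1, a secreted inhibitor of NODAL and BMP, reached 133.7 on Day 4, the cystatin CST1 62.5, and EOMES, the T-box factor that acts before SOX17, 38.2. MIXL1 (4.43 and 41.0 FPKM), OTX2 (18.9 and 47.7), LHX1 (0 and 15.9), GSC (0 and 10.5) and FGF17 (0.373 and 4.34) completed the 8. Those at 0 or 0.373 FPKM at Day 0 had to pass once above 4 FPKM, and could not be called lower. EOMES was at 1.39 FPKM at Day 1, under the cutoff, and at 10.9 at Day 2, when SOX17 was at 0 and 3.05. For SOX17, 3 reads at Day 1 would have given 0.538 FPKM. Which of EOMES and SOX17 rose first was not tested. KIT and FZD8 were among those above 4 FPKM at Day 4 and not called against Day 0. FZD8 was called against the untreated mutant line, at 7.98 FPKM on Day 4 against 3.65 there. RIPPLY1 was listed at 0 in every library. With Dox in the mutant line, 0 of the 17 were called higher, and OTX2 was among those called lower, at 7.50 against 15.2 FPKM.

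Upstream of the regulators, the ligand, receptors and SMADs of NODAL/activin signaling were present before Dox. The ligand NODAL was at 68.2 FPKM before Dox and 65.3 on Day 4, and its cofactor TDGF1 at 224 and 146. Of 12 genes in this list, 2 were called higher at Day 4, LEFTY1 (19.7 and 70.0 FPKM) and LEFTY2 (5.38 and 23.0), both secreted NODAL inhibitors and targets of the pathway, and 0 were called lower. The median difference in log2(FPKM + 1) was -0.16. LEFTY1 had reached 43.3 FPKM at Day 1. GDF3, another ligand, was called lower with Dox in the mutant line, at 11.1 against 22.6 FPKM.

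Genes of the gut tube and liver, which lie downstream of FOXA2 and HNF4A, were mostly low or listed at 0. Of 16, APOA2 was called higher at Day 4 (background 5.87%), at 6.20 FPKM against 0 at Day 0 with overlapping intervals. ONECUT1 was called lower (background 7.54%), at 2.07 against 4.30, a call lost against the untreated mutant line. The median difference over the list was 0.00, while its sum was 4.96 FPKM at Day 0 and 16.4 at Day 4. In the mutant line the sum was 4.05 FPKM without and 3.00 with Dox. Above 1 FPKM were 1 of the 16 genes at Day 0 and 4 at Day 4. APOA2 had been at 4.33 FPKM on Day 2 and 1.46 on Day 3. APOA1, an apolipoprotein gene bound by HNF4A, was listed at 0 FPKM before Dox and on Day 1, then at 0.428, 0.401 and 3.37 on Days 2, 3 and 4. ALB, TTR, APOC3, SERPINA1, FGB, TF and PDX1 were listed at 0 in all 7 libraries.

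Several of the 9 genes are also used by other cell types, whose markers were read beside them. Of 10 markers of extraembryonic endoderm, which shares GATA4, GATA6, SOX17 and HNF4A, none passed the cutoffs at Day 4 and 9 were listed higher than at Day 0, with a median difference in log2(FPKM + 1) of 0.65. Their sum was 239 FPKM at Day 0, 385 at Day 4, and 221 and 234 in the mutant line without and with Dox. SPARC, at 168 and 270 FPKM, and LAMB1, at 27.9 and 46.1, made up much of that sum, TTR was at 0 throughout and SOX7 at 0.817 FPKM at Day 4. APOA1, also in this list, was at 0 FPKM at Day 0 and 3.37 at Day 4. Of the 10, 7 were above 1 FPKM at Day 4 and 5 at Day 0. Of 13 markers of mesoderm and heart, T (0.804 and 23.6 FPKM) and MYL7 (1.80 and 8.01, intervals overlapping) were called higher and KDR (13.1 and 3.79) lower, while HAND1 and MSGN1 were at 0 in every library. This list summed to 19.7 FPKM at Day 0, 43.3 at Day 4 and 15.2 in the untreated mutant line, and its median difference was 0.08.

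Germ cells share SOX17 and PRDM1. Of 7 germ cell markers, 0 were called higher at Day 4 and TFAP2C (24.0 and 8.36 FPKM) and DND1 (7.51 and 0.457) were called lower than at Day 0. Against the untreated mutant line none was called. NANOS3 was listed at 0 in all libraries, and the list summed to 43.8 FPKM at Day 0 and 22.6 at Day 4, with a median difference of 0.00. Endothelium shares SOX17 and HHEX. Of 7 endothelial markers, FLI1 was called higher (0.415 and 9.22 FPKM) and KDR, which is also in the mesoderm list, lower, PECAM1 was at 0 in all libraries, and the list summed to 17.3 and 17.1 FPKM at Day 0 and Day 4, with a median difference of 0.03. The part of any of these cell types in the values of the 9 regulators was not tested. Of the 6 pluripotent cell markers, SOX2 and DNMT3B were called lower at Day 4 than at Day 0, and none against the untreated mutant line. The median difference in log2(FPKM + 1) of the 6 from Day 0 was -0.56.

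**Figure D5:**
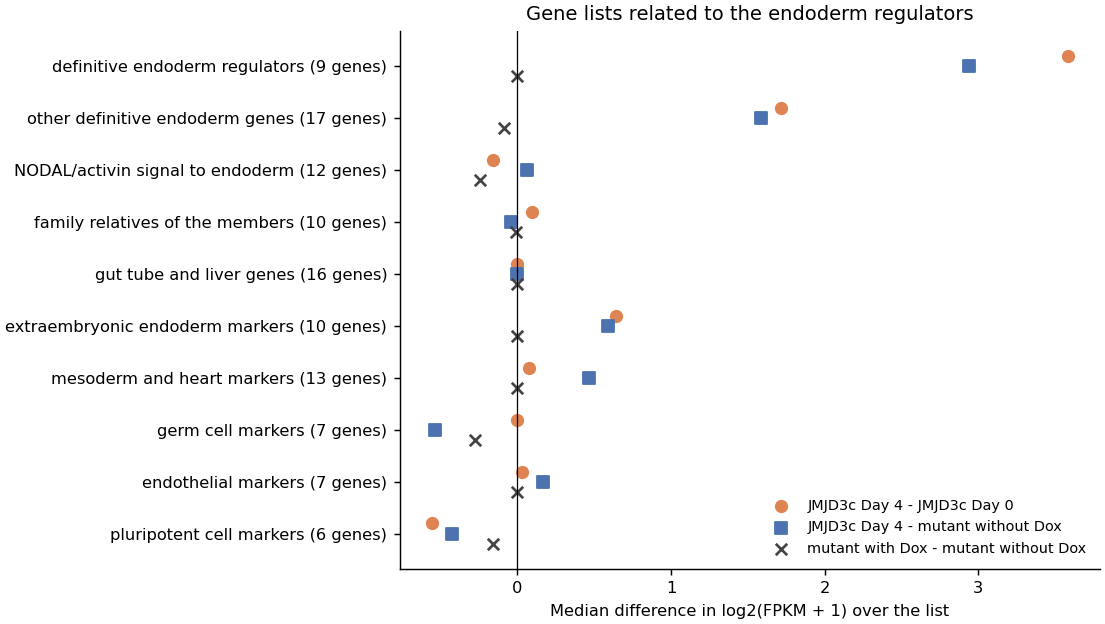
Median difference in log2(FPKM + 1) (x axis) over the 9 regulators and 9 related gene lists (y axis, number of genes in parentheses), 1 library on each side. The regulators lie at 3.58 and 2.94 and the other definitive endoderm genes at 1.72 and 1.58 for JMJD3c Day 4 against the untreated libraries, and in the mutant line (crosses) every list lies between -0.28 and 0.

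The genes whose profile over the 7 libraries was most like the mean of the 9 regulators, by Pearson's r of log2(FPKM + 1) among 10858 names, were EMILIN2 (r = 0.998), GABBR1 (0.995), TNC (0.995), CPE (0.995) and FGF12 (0.993). The extracellular matrix glycoprotein TNC was at 0.205 FPKM before Dox and at 0.873, 2.87, 8.43 and 24.6 on Days 1, 2, 3 and 4, with 0.697 and 0.569 in the mutant line. The prohormone-processing enzyme CPE was at 3.80 FPKM before Dox and 27.2 on Day 4. EMILIN2 went from 0.984 to 5.68 FPKM, FGF12 from 3.31 to 13.3 and GABBR1 only from 12.3 to 22.1, as r does not weigh the size of a change. Together 89 names had an r above 0.95, and the 7 points share their libraries and days, so these values are a description only.

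Reads on the strand opposite to a gene can add to its FPKM where strand is not used in counting, and whether it was used is not given in the sources used here. FOXA1 overlaps TTC6, PRDM1 overlaps ATG5, GATA6 overlaps GATA6-AS1 and HNF4A overlaps HNF4A-AS1, each on the opposite strand in GENCODE, so reads of these pairs could not be told apart in that case.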

How the data were processed

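Poly(A) RNA libraries (NEBNext Ultra Directional kit) of 7 samples, 1 per condition, were sequenced on a MiSeq as single-end reads of 150 bases. Per the paper's methods and the labels, the authors aligned them to hg19 with TopHat2 (version 2.0.13 in the submitters' processing notes) and calculated with Cufflinks (version 2.1.1) the deposited FPKM per gene with its 95% bounds. The annotation release is not given in the sources used here.

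From these, ratios and differences in log2(FPKM + 1) were computed between pairs of libraries. Where a name has several entries, the one with the highest mean FPKM was used. Calls required a ratio above 2 (or below 0.5) and more than 4 FPKM in the higher library. No test across genes was possible with 1 library per condition.

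Depth was estimated from whole-read steps of FPKM in 266 to 306 genes with 1 exon and 1 transcript, after subtracting 200 bases from the length, and checked on simulated data. Between 49.4% and 61.2% of low values lay within 0.1 of a whole read, so the depth is approximate. If 1 read were worth 0.5 of the step used, every depth would be 2 times, and every floor 0.5 times, the value given. Floors of 3 reads used the longest GENCODE release 44 transcript. Neither they nor the intervals cover the spread between cultures. The floors cover counting only, and some intervals are wider than counting would give. For PRDM1 at Day 0, about 2 reads had an upper bound of 3.82 FPKM, where 3 reads stand for 0.337 FPKM.

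The genes named are the 9 regulators, KDM6B, members of the related lists that passed the cutoffs or had high FPKM, and the 5 genes most alike in profile. Further list genes named at 0 or low FPKM were chosen after their values were seen. The regulators, lists and alternatives were chosen with earlier results of these data known. The alternatives changed cutoff, pseudocount, scaling, entries, reference and treated library, and use of intervals. The scripts ran under Python 3.11.15 with pandas 2.3.3, numpy 2.4.6 and, for figures, matplotlib 3.10.9. ChIP-seq and qRT-PCR data were not analysed here, and values of 1 gene of the lists are not reported here.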

Additional observations from a re-analysis of the deposited data

Results flagged for a closer look

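The 4 regulators below were listed higher with Dox at Day 4 in the JMJD3c line and lower with Dox in the mutant line. With 1 library in each condition, the difference between the lines was not tested. For GATA6 the difference in log2(FPKM + 1) with Dox was 3.98 in the JMJD3c line and -0.20 in the mutant line, 4.18 apart. For GATA4 it was 3.58 and -0.31, 3.89 apart. For PRDM1 it was 2.10 and -0.29, 2.39 apart. For HHEX it was 1.00 and -0.48, 1.47 apart. In the mutant line all 4 were under 3 FPKM in both libraries, and no intervals were apart, so the falls there rest on few reads. With values at 0 set to 3 reads, the difference in the mutant line became 0.15 for GATA6 and -0.04 for PRDM1, so GATA6 no longer moved in opposite directions.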

How the results depend on the processing

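Which regulators passed the cutoffs depended on the FPKM cutoff at the early days. With a cutoff of 1 FPKM, 2 in place of 1 were called higher at Day 1, 6 in place of 1 at Day 2 and 8 in place of 5 at Day 3 against Day 0, and 4 in place of 1 and 5 in place of 3 from Day 1 to Day 2 and from Day 2 to Day 3. With a cutoff of 10 FPKM, 0 were called at Day 1, 2 at Day 3 and 1 from Day 2 to Day 3. The 6 calls at Day 4 against Day 0 stayed within 1.5 times under the cutoffs, the rescaling of libraries, the summing of entries, the use of the intervals, Day 3 as the treated library (5 called) and the untreated mutant line as the reference (6 called). The rescaling moved no library by more than 0.0332 on the log2 scale. The size of the median difference in log2 depended on the pseudocount by construction, since many values are at or near 0. With 0.1 FPKM it was 6.27 at Day 4 against Day 0, 4.06 against the untreated and 4.95 against the Dox-treated mutant line, 3.97 at Day 2 and 5.70 at Day 3. With 4 FPKM it was 1.90 at Day 4 and 1.19 at Day 3. With values at 0 set to 3 reads it was 1.73 at Day 3 in place of 2.61, and 0.0277 for Dox in the mutant line in place of 0. Of the 5 genes most alike by Pearson's r, 2 also had the highest Spearman's rho, which 21 names shared. Of 450 values of single regulators under these alternatives, 355 stayed within their Cufflinks bounds and 95 moved, and no called value changed sign. The alternatives for Days 1, 2 and 3 and for the steps between days were chosen after seeing the data. No paired analysis was possible because each condition has 1 library, and for the same reason no library could be left out. Day 0, the shallowest library, limits what could be seen before Dox.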
